A study of Mus musculus with 4 samples.

Results

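The maternal mRNA storage protein genes described here are 10 listed genes, *Cpeb1*, *Ybx2*, *Lsm14b*, *Zar1*, *Zar1l*, *Pabpc1l*, *Eif4e1b*, *Ddx6*, *Eif4enif1* and *Pabpc1*. They were listed by symbol, with earlier results of these data known. All 10 were among the 20171 genes of the gene table, and 9 of them, all but *Ddx6*, had at least 1 isoform in the isoform table. Single mouse oocytes, zygotes and blastomeres were read as full-length cDNA by HIT-scISOseq, a PacBio long-read method in which every cDNA carries a cell barcode and a unique molecular identifier (UMI). Oocytes came from superovulated C57BL/6J females of 6 to 8 weeks, and embryos from such females mated with DBA/2NCrl males (the deposited labels give the cross as DBA/2J x C57BL/6J). After injection of human chorionic gonadotropin, MII oocytes of unmated females were taken at 20 h, zygotes at 22 to 24 h, early 2-cell embryos (E2C) at 30 to 32 h and late 2-cell embryos (L2C) at 46 to 48 h. The 4-cell embryos were taken at 54 to 56 h, 8-cell embryos at 68 to 70 h, 16-cell and 32-cell embryos at 78 to 80 h and early blastocysts at 88 to 90 h. Neither the labels nor the methods name a mutation, or a treatment beyond the hormones given to the females. Mouse embryonic stem cells (mESCs) were of the established line E14 Tg2A. The oocyte, zygote or embryo named in a cell's column was the replicate, and there were 10 oocytes and 9 zygotes, with 5 embryos at E2C, 6 at L2C, 5 at the 4-cell stage and 4 each at the 8-cell and 16-cell stages. The columns of the 22 32-cell, 13 blastocyst and 5 mESC cells name no embryo, and these cells are given by range and median without a test. A 4th run held 4 intact oocytes, 6 samples of 1/2 oocyte and 6 of 1/4 oocyte.

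A growing oocyte makes large amounts of mRNA that it does not translate at once, and stores them with short poly(A) tails in ribonucleoprotein particles until maturation or fertilization. ZAR1, LSM14B, YBX2, DDX6 and the eIF4E-binding protein 4E-T, the product of *Eif4enif1*, are components of such particles, and CPEB1 binds the cytoplasmic polyadenylation element in the 3' untranslated region of stored mRNAs. Oocytes also use a cap-binding protein and a poly(A)-binding protein of their own, EIF4E1B and PABPC1L, beside the general poly(A)-binding protein PABPC1 of somatic cells.

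Each level below is the mean over the cells of an embryo, in copies per 100,000 UMIs of a cell. A UMI stands for 1 molecule that was captured, so levels of different genes were compared without a length correction. Differences in capture between genes were not tested. The values are shares of a cell's UMIs. A loss of the molecules themselves and a gain of others cannot be told apart in them. The reads were primed at the poly(A) tail. Tail length was not measured, and its part in the levels and in their changes between stages was not tested.

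The 3' ends at which reads of 8 of the storage genes stopped are shown first, because the reads were primed at the poly(A) tail. They are the last 30 bases before the most used end of each gene shown, with ends within 30 bases of each other joined, that lay inside an annotated exon, read 5' to 3' on the transcript strand from GENCODE vM21 transcripts (GRCm38/mm10), and capitals mark AATAAA, the usual poly(A) signal. *Ybx2* and *Eif4enif1* lie on chr11, *Lsm14b* and *Pabpc1l* on chr2, *Zar1* and *Zar1l* on chr5, *Eif4e1b* on chr13 and *Pabpc1* on chr15. The ends come from the isoform table, which held 0.433% as many UMIs as the gene table for *Lsm14b* and 11.1% for *Eif4e1b*. Gene levels below therefore do not all rest on the ends shown. The window of *Zar1l* is its second most used end, since the first lay 60 bases past the annotated end.
Ybx2, chr11:69941575-69941604, plus strand: ccagtaaaaacaaaagcaggctttcttgtt
Lsm14b, chr2:180034627-180034656, plus strand: ctcttaaaatggaaccaaattttatttggc
Zar1, chr5:72577098-72577127, minus strand: ggtattgcaaacaagtttgaggctttatcc
Zar1l, chr5:150507055-150507084, minus strand: cttcagcttaaAATAAAccttgtgacagtg
Pabpc1l, chr2:164050490-164050519, plus strand: ccccctgctgatcattttgctttatatatt
Eif4e1b, chr13:54788424-54788453, plus strand: ccctttctgtatctaAATAAAcacttctgg
Eif4enif1, chr11:3244559-3244588, plus strand: aagttacatatgccacgtgtgtgaacgata
Pabpc1, chr15:36595661-36595690, minus strand: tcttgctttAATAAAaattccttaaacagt

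AATAAA stood in the windows of *Zar1l*, *Eif4e1b* and *Pabpc1*, and neither AATAAA nor ATTAAA stood in those of *Ybx2*, *Lsm14b*, *Zar1*, *Pabpc1l* and *Eif4enif1*. Over the most used ends of 9349 genes that could be read in this way, 62.5% held AATAAA or ATTAAA in the last 30 bases. The letters TTTTAT or TTTTAAT, forms of the cytoplasmic polyadenylation element, were looked for in the last 100 bases on the transcript strand. They were found in *Ybx2*, where TTTTAT starts 61 bases before the end, and in *Lsm14b*, where TTTTAT starts 11 and TTTTAAT 48 bases before it. Of the 9349 genes, 20.9% held either. The *Lsm14b* end rested on 7 UMIs and lay 805 bases short of the nearest end of an annotated coding transcript. These are matches of letters and not tested sites.

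Depth differed between stages. The median cell held 38914 UMIs and the range was 4985 to 389775. Zygotes held 194072 to 389775 UMIs and oocytes 166731 to 255836, against 31037 to 105534 in E2C cells. A gene with no UMI in the shallowest 4-cell cell may still stand at up to 60.2 copies, taking 3 counts as the limit that a count of 0 allows, against 1.80 in the shallowest oocyte. Such limits cover counting error only. No barcode was shared among the 19 oocytes and zygotes whose barcodes were listed. All 8 oocyte markers were found in oocytes, where their sum lay between 1740 and 2411 copies, against 20.1 to 101.5 in 8-cell embryos. Their sum was 12.56 to 183.6 copies in 16-cell embryos, 73.55 to 219.6 in blastocyst cells and 54.61 to 111.8 in mESCs. In mESCs *Oosp1* alone held 34.42 to 63.89 copies, and the source of these reads was not tested. Of 10 cumulus and granulosa markers, 4 were found in oocytes, their sum was at most 9.81 copies, and *Amh*, *Ptx3*, *Tnfaip6*, *Inha*, *Foxl2* and *Lhcgr* were at 0 or not listed. *Cyp19a1* was found in all 10 oocytes at 3.868 to 9.809 copies (mean 7.448) and in all 9 zygotes at 3.606 to 8.465. The source of the *Cyp19a1* reads was not tested. The 6 markers of 2-cell activation summed to between 35.4 and 75.1 copies in E2C embryos and to between 5.57 and 41.9 in L2C embryos. They already summed to between 4.38 and 43.7 copies in oocytes and to between 11.4 and 75.5 in zygotes. Their sum thus did not set E2C embryos apart from zygotes. By single gene 3 of the 6 were called higher and 0 lower from zygote to E2C, beside 4.52% higher and 2.75% lower of all genes tested. In mESCs the 6 pluripotency markers summed to between 116 and 233 copies.

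The 10 storage mRNAs together made up 196 ± 36.5 copies per 100,000 UMIs in oocytes (SD, n = 10), 226 ± 69.3 in zygotes (n = 9) and 151 ± 13.01 in E2C embryos (n = 5). The sum was 69.8 ± 22.8 copies in L2C embryos (n = 6) and 42.1 ± 11.9 in 4-cell embryos (n = 5), and it stood at 51.9 ± 14.1 and 72.2 ± 22.8 in 8-cell and 16-cell embryos (n = 4 each). In oocytes *Zar1* alone gave 65.7% of it and *Lsm14b* 18.0%, in E2C embryos *Eif4enif1* led with 29.7% before *Eif4e1b* with 23.9%, and in 8-cell embryos *Pabpc1* gave 88.5%. Without *Pabpc1* the sum was 195 ± 37.1 copies in oocytes, 150 ± 11.9 in E2C embryos, 31.5 ± 11.7 in L2C embryos and 5.98 ± 1.09 in 8-cell embryos.

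**Figure D1:**
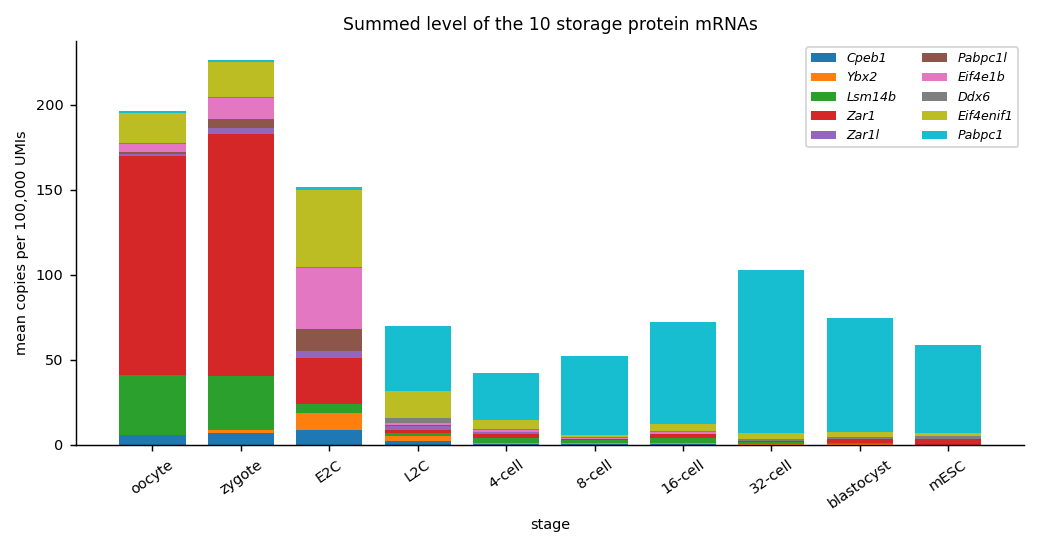
Mean copies per 100,000 UMIs (vertical axis, linear) of the 10 storage protein mRNAs, stacked by gene, at each stage (horizontal axis). Means are over embryos up to the 16-cell stage and over cells for 32-cell, blastocyst and mESC. *Zar1* fills 65.7% of the oocyte bar and *Pabpc1* 88.5% of the 8-cell bar.

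*Zar1*, a maternal-effect gene needed for the oocyte-to-embryo transition, was the most abundant of the 10 in oocytes and zygotes. In oocytes it lay between 84.4 and 197 copies with a median of 118, and in zygotes between 82.5 and 304 with a median of 122. These ranges overlapped, and the difference of 0.05 ± 0.20 on the log2 scale was not called (limma, standard error, adjusted p = 0.944). The 5 E2C embryos held 26.1, 21.0, 13.7, 39.5 and 37.2 copies, all below the lowest zygote. *Zar1* fell by 2.28 ± 0.27 on the log2 scale from zygote to E2C (limma, adjusted p = 6.18e-09). In L2C embryos 5.57, 0, 0.986, 0.828, 0.861 and 0.875 copies were left, again with no overlap, and the fall from E2C was 3.92 ± 0.37 on the log2 scale (the fit gave -3.92, adjusted p = 1.24e-13). The value of 5.57 is 1 UMI in the only cell of L2C embryo 1, which held 17971 UMIs. Low levels were read in 16-cell embryos, at 1.12, 1.43, 2.54 and 3.90 copies, and in blastocyst cells, where 10 of 13 cells had a *Zar1* UMI and the median was 2.12 copies. *Zar1* was also read in mESCs, and the source of these late reads was not tested.

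The runs differed within zygotes. In run 3 the zygotes stood at 156 to 304 copies of *Zar1* and at 37.3 to 75.2 of *Lsm14b*, and in run 1 at 105 to 134 and 15.6 to 25.0. Oocytes of run 3 held 108 to 164 copies of *Zar1* and 28.6 to 44.2 of *Lsm14b*, and those of run 1 held 84.4 to 133 and 22.7 to 51.6. Run 2 held 1 oocyte, with 197 copies of *Zar1*, and 2 zygotes with 82.5 and 97.9. The log2 difference between zygotes and oocytes was 0.09, -1.12 and 0.60 in runs 1, 2 and 3 for *Zar1* and -0.80, -0.39 and 0.56 for *Lsm14b*, so the direction differed between runs for both genes. The part of the run in the spread between zygotes was not tested. Runs were assigned to oocytes and zygotes only, so the part of the run in the steps from zygote on could not be tested.

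*Zar1l*, the paralog of *Zar1*, was a low mRNA of at most 7.55 copies in any embryo. It lay between 0 and 2.5 copies in oocytes (median 1.36), between 1.27 and 7.55 in zygotes (median 4.09), and at 2.40, 5.47, 7.18, 2.55 and 2.70 in E2C embryos. L2C embryos held 0, 3.22, 0.986, 5.99, 0.784 and 4.38 copies, which overlapped the E2C values, and 4-cell embryos held 2.00, 0, 6.07, 0 and 0.685. No UMI was found in the 26 8-cell and 38 16-cell blastomeres, which allows up to 0.382 and 0.253 copies over all UMIs of the stage. No step between adjacent stages was called for *Zar1l*. The difference from oocyte to zygote was 0.89 ± 0.25 (limma, log2, adjusted p = 0.00884), under the limit of 1 on the log2 scale, and edgeR and DESeq2 on UMIs gave 1.30 and 1.28 and called it. From 4-cell to 8-cell it was -0.90 ± 0.50 (limma, adjusted p = 0.240), a step that edgeR and DESeq2 on UMIs called lower.

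*Lsm14b*, which encodes an LSm-domain protein of RNA granules, followed *Zar1* in abundance and in time. In oocytes it lay between 21.2 and 51.6 copies (median 38.02) and in zygotes between 11.5 and 75.2 (median 22.2). The 5 E2C embryos held 5.34, 4.94, 7.39, 2.96 and 5.94 copies, all below the lowest zygote, a change of -2.08 ± 0.31 on the log2 scale (limma, adjusted p = 1.57e-06). In L2C embryos it was at 0, 1.74, 1.77, 3.65, 2.43 and 0.875 copies, which overlapped E2C in 1 embryo. That step of -1.15 ± 0.43 met the rule (limma, adjusted p = 0.0188) but missed it without E2C embryo 1, 2, 3 or 5, with the smallest size, -1.004, without embryo 3. All 4 16-cell embryos lay between 0.222 and 6.49 copies, below every oocyte.

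*Ybx2* encodes the germ-cell Y-box protein that binds and stabilizes oocyte mRNAs, and its mRNA was nearly undetected in oocytes. Of 10 oocytes, 5 had no *Ybx2* UMI, and the highest value was 1.25 copies. Zygotes lay between 0 and 3.32 copies with a median of 1.62, which overlapped the oocytes. The step from oocyte to zygote was 1.11 ± 0.22 on the log2 scale (limma, adjusted p = 0.000268). It was 0.95 with the run as a block, no longer past the limit of 1, and the difference of log2 means was 1.45 in run 1, 0.56 in run 2 with 1 oocyte and 0.39 in run 3. E2C embryos held 8.18, 10.8, 10.9, 8.20 and 9.69 copies, all above the highest zygote, a rise of 1.90 ± 0.31 (limma, adjusted p = 6.78e-06). L2C embryos held 5.57, 0, 4.14, 2.48, 4.23 and 3.36 copies, all below the lowest E2C embryo, a change of -1.64 ± 0.42 (adjusted p = 0.000718). This call was lost with a pseudocount of 0.1 (-2.45, limma, unadjusted p = 0.0206) and of 5 (-0.91, under the limit of 1).

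*Cpeb1*, the gene of the polyadenylation element-binding protein, did not differ beyond the spread of the embryos from oocyte to E2C. Oocytes lay between 2.35 and 8.77 copies (median 5.49), zygotes between 2.84 and 12.4 (median 6.20), and E2C embryos at 7.53, 5.47, 13.8, 10.1 and 7.55. Neither step was called, with 0.29 ± 0.21 and 0.39 ± 0.29 on the log2 scale (limma, adjusted p = 0.426 and 0.424). L2C embryos held 5.57, 1.74, 0, 3.17, 0 and 0.736 copies, which overlapped E2C only through L2C embryo 1, where 5.57 is 1 UMI. The step was -2.39 ± 0.40 (limma, adjusted p = 6.21e-07). Between oocytes and zygotes the log2 difference was 0.67, 0.53 and -0.62 in runs 1, 2 and 3. From the 4-cell stage on the highest embryo was 1.30 copies, and none of the 40 cells of 32-cell embryos, blastocysts and mESCs had a *Cpeb1* UMI.

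*Ddx6*, which encodes the DEAD-box helicase of P-bodies, was the lowest of the 10 in oocytes and zygotes. It was found in 5 of 10 oocytes at up to 1.03 copies, in 8 of 9 zygotes at up to 1.83 and in 4 of 5 E2C embryos at up to 1.10. L2C embryos held 5.57, 0.740, 2.57, 4.00, 1.72 and 2.21 copies, of which all but embryo 2 lay above every E2C embryo. The value of 5.57 is 1 UMI in the only cell of embryo 1, and the other L2C embryos held 1 to 4 UMIs each. The change of 0.92 ± 0.35 on the log2 scale was not called (limma, adjusted p = 0.0201), being under the limit of 1. It passed without array weights (1.13) and without E2C embryo 2 (1.01) or 4 (1.04). The whole gene table held 82 *Ddx6* UMIs, and the gene overlaps 2 gene models of uncertain status on the same strand.

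**Figure D2:**
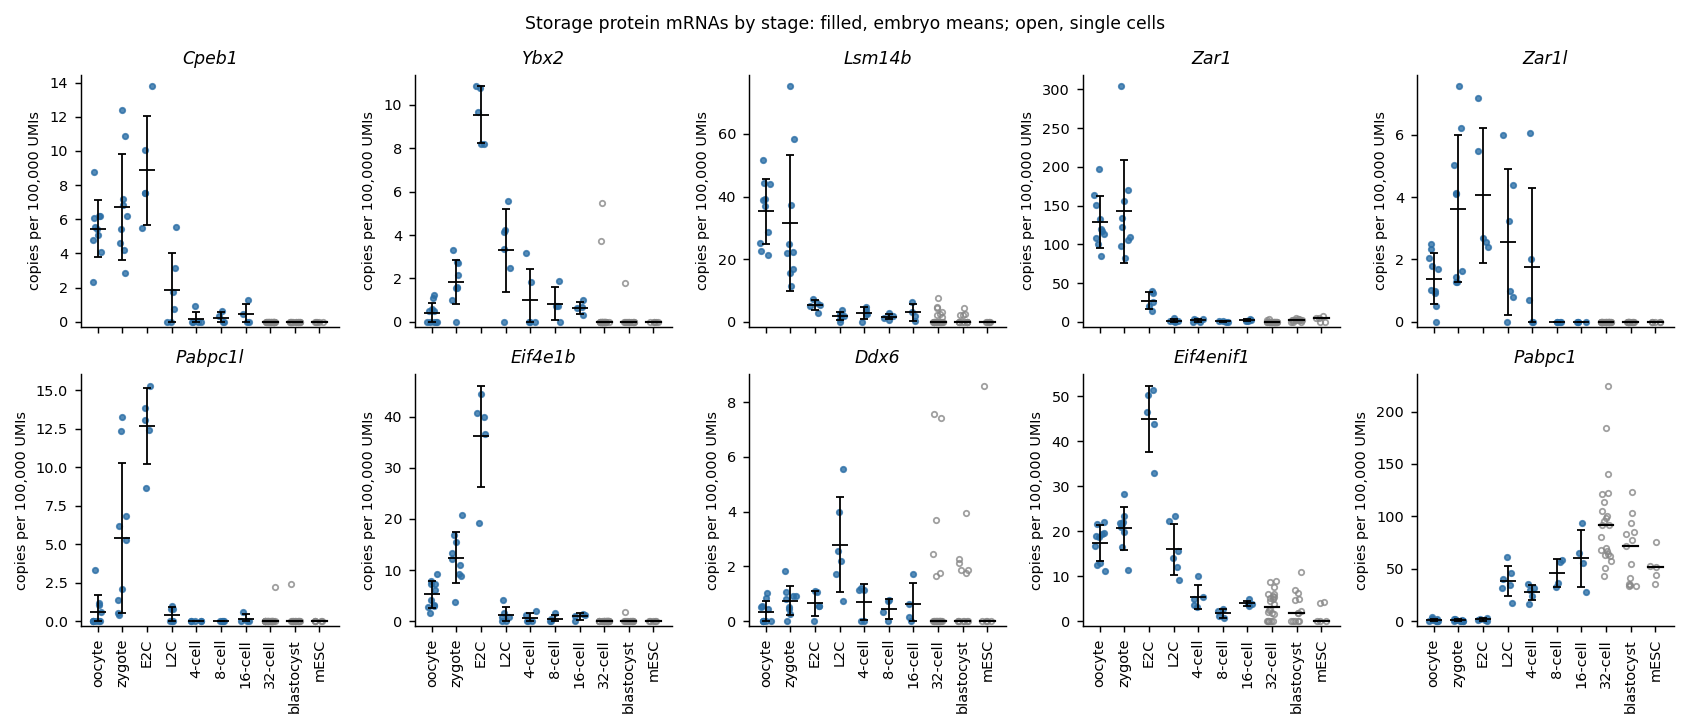
Copies per 100,000 UMIs (vertical axes, linear, 1 panel per gene) at each stage (horizontal axis). Filled points are embryo means with bars for mean and SD over embryos, and open points are single cells of 32-cell embryos, blastocysts and mESCs with a line at the median. *Zar1* and *Lsm14b* are highest in oocytes and zygotes, *Ybx2*, *Pabpc1l*, *Eif4e1b* and *Eif4enif1* in E2C embryos, and *Pabpc1* from L2C on.

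*Eif4e1b*, the oocyte form of the cap-binding protein eIF4E, rose at both steps before the E2C stage and then fell. Oocytes lay between 1.66 and 9.26 copies with a median of 5.08, and zygotes between 3.85 and 20.8 with a median of 12.3. The groups overlapped, and the rise was 1.19 ± 0.23 on the log2 scale (limma, adjusted p = 0.000203). With the run as a block it was 1.03, and the differences of log2 means were 0.91, 0.99 and 1.198 in runs 1, 2 and 3. E2C embryos held 19.2, 40.0, 36.6, 40.8 and 44.4 copies, of which only embryo 1 lay within the zygote range, and the rise was 1.46 ± 0.32 (adjusted p = 0.000803). With a pseudocount of 0.1 in place of 1 it was 1.54 and no longer called (limma, unadjusted p = 0.0114). In L2C embryos 0, 0.740, 0, 4.14, 0.784 and 1.61 copies remained, with no overlap. The fall of 4.21 on the log2 scale (the fit gave -4.21 ± 0.44, limma, adjusted p = 2.84e-12) was the largest of any storage gene between adjacent stages.

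*Eif4enif1* encodes 4E-T, which holds cap-binding proteins in repressed mRNAs and P-bodies. Its oocytes lay between 11.1 and 22.1 copies (median 18.9) and its zygotes between 11.4 and 28.3 (median 21.6), a step that was not called. E2C embryos held 51.4, 50.3, 43.8, 32.9 and 46.4 copies, all above the highest zygote, a rise of 1.07 ± 0.23 on the log2 scale (limma, adjusted p = 0.000449). EdgeR and DESeq2 on UMIs gave 0.874 and 0.995, under the limit of 1. L2C embryos held 22.3, 12, 15.6, 23.3, 9.08 and 14.0, all below the lowest E2C embryo, a change of -1.58 ± 0.31 (limma, adjusted p = 1.56e-05). *Eif4enif1* then took further steps of -1.34 ± 0.35 to the 4-cell stage (adjusted p = 0.0199) and of -1.30 ± 0.33 to the 8-cell stage (adjusted p = 0.00375), where embryos held 1.14, 2.20, 2.81 and 0.753 copies. The 16-cell embryos held 3.73, 3.73, 4.89 and 3.42 copies, all above the 8-cell embryos. That rise of 1.02 ± 0.31 met the rule, which uses the unadjusted value (limma, adjusted p = 0.0871), and fell to 0.87 without 8-cell embryo 4 and 0.98 without 16-cell embryo 3, neither past the limits. *Drg1* overlaps *Eif4enif1* on the opposite strand.

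*Pabpc1l*, the poly(A)-binding protein gene of oocytes and early embryos, had no UMI in 6 of 10 oocytes, and the highest oocyte held 3.33 copies. Zygotes lay between 0.423 and 13.3 copies with a median of 5.28, a wide range that overlapped the oocytes. The rise was 1.84 ± 0.28 on the log2 scale (limma, adjusted p = 1.93e-06), 1.51 with the run as a block, and 1.83, 1.23 and 1.25 in runs 1, 2 and 3. E2C embryos held 13.8, 8.67, 13.1, 15.3 and 12.4 copies, within or above the upper zygote range, and the rise of 1.45 ± 0.38 (adjusted p = 0.00520) was 1 with edgeR and 1.11 with DESeq2 on UMIs and called by neither, nor was it with a pseudocount of 0.1 or 5. L2C embryos held 0, 1.004, 0.790, 0, 0.784 and 0 copies, far below E2C, and the change was -3.22 ± 0.52 (limma, adjusted p = 3.61e-07). Over all 17 4-cell and 26 8-cell blastomeres no UMI was found, which allows up to 0.572 and 0.382 copies.

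*Pabpc1*, the general poly(A)-binding protein gene, stood lowest where *Zar1* and *Lsm14b* stood highest, and rose from E2C to L2C, where 7 of the other genes fell. Oocytes held 0 to 3.55 copies (median 0.886), zygotes 0.302 to 2.27 (median 0.620) and E2C embryos 0, 2.13, 1.49, 1.58 and 3.22. L2C embryos held 61.2, 34.4, 45.8, 31.3, 17.5 and 40.0 copies, all above every E2C embryo, a rise of 3.87 ± 0.42 on the log2 scale (limma, adjusted p = 7.21e-12). None of the later steps was called. The 4-cell embryos lay between 16.8 and 35.7 copies, 8-cell embryos between 32.5 and 58.0 and 16-cell embryos between 27.4 and 93.5. Cells of 32-cell embryos held 42.8 to 225 copies (median 92.2), blastocyst cells 33.6 to 123 (median 72.1) and mESCs 35.1 to 75.9 (median 51.6). *Pabpc1* has related gene copies, and how reads were divided among them was not tested.

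Counted over the table, 3 of the 10 genes rose and none fell from oocyte to zygote, where 3.24% of the 11682 genes tested were called, 2.92% higher and 0.325% lower. From zygote to E2C 4 rose and 2 fell, against 7.27% of all genes called, 4.52% higher and 2.75% lower. From E2C to L2C 1 rose and 7 fell, at a step where 48.4% of all genes were called, 25.6% higher and 22.8% lower. The median log2 change of the 10 at that step was -1.61, beside 0.03 over all genes. Groups did not overlap for 1 gene that was higher and 5 that were lower in L2C, beside 13.1% and 14.6% of all genes, and from zygote to E2C for 2 higher and 2 lower, beside 2.86% and 1.56%. At the 3 later steps only *Eif4enif1* was called, lower from L2C to 4-cell (6.69% of all genes called, 2.41% higher and 4.28% lower) and from 4-cell to 8-cell (15.0%, 4.47% higher and 10.5% lower) and higher from 8-cell to 16-cell (3.36%, 1.90% higher and 1.46% lower). From oocyte to 16-cell, where 50.8% of all genes were called, 26.8% higher and 24.0% lower, *Cpeb1*, *Lsm14b*, *Zar1*, *Zar1l*, *Eif4e1b* and *Eif4enif1* fell and *Pabpc1* rose by 4.88 ± 0.34 on the log2 scale (limma, adjusted p = 6.74e-20). *Zar1* changed by -5.55 ± 0.30 over this period (limma, adjusted p = 2.08e-24). *Ybx2*, *Pabpc1l* and *Ddx6* changed by 0.35, -0.38 and 0.14 on the log2 scale and were not called.

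**Figure D3:**
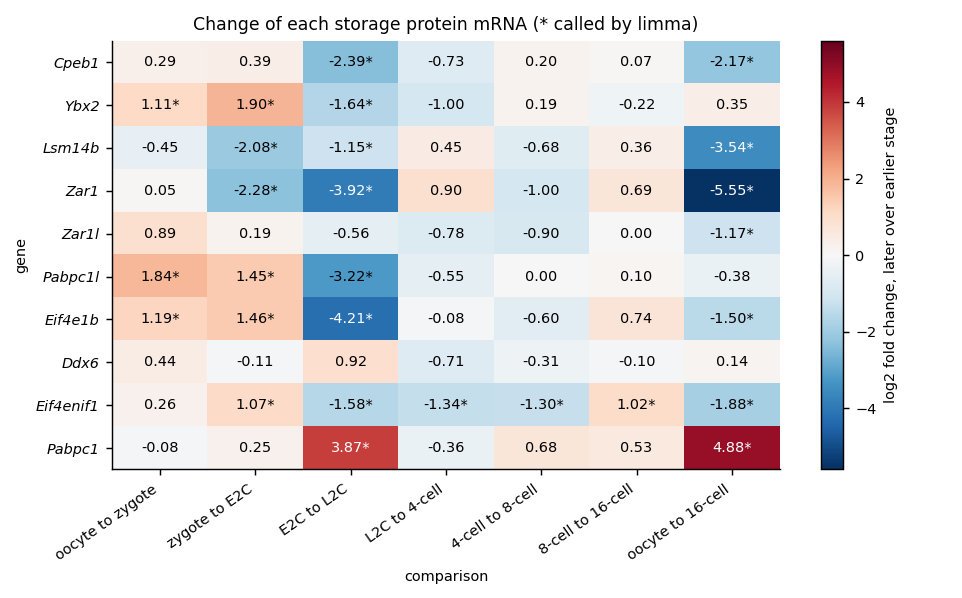
Log2 fold change (colour and printed value, later over earlier stage, on the log2 of copies plus 1) of each storage protein gene (rows) in each comparison (columns), with an asterisk where limma called it. *Zar1* and *Lsm14b* were lower in E2C than in zygotes, where *Ybx2*, *Pabpc1l*, *Eif4e1b* and *Eif4enif1* were higher, and 7 genes fell and *Pabpc1* rose from E2C to L2C.

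The stage of the highest mean differed between the genes. *Zar1* and *Lsm14b* were highest in oocytes or zygotes, with means of 129 and 142 copies for *Zar1* and 35.2 and 31.6 for *Lsm14b* that do not differ beyond their spread. *Cpeb1*, *Zar1l*, *Ybx2*, *Pabpc1l*, *Eif4e1b* and *Eif4enif1* were highest in E2C embryos, at 8.88 ± 3.19, 4.06 ± 2.16, 9.53 ± 1.31, 12.7 ± 2.47, 36.2 ± 9.89 and 45.0 ± 7.39 copies (SD, n = 5). *Ddx6* was highest in L2C embryos at 2.80 ± 1.73 copies (n = 6), a mean raised by the 5.57 copies of embryo 1, which are 1 UMI. *Pabpc1* was highest in cells of 32-cell embryos. Over the 43 embryos Pearson's r of the log2 levels was 0.89 for *Zar1* with *Lsm14b*, 0.81 for *Pabpc1l* with *Eif4e1b*, 0.66 for *Ybx2* with *Pabpc1l*, -0.02 for *Ybx2* with *Zar1* and -0.92 for *Zar1* with *Pabpc1*. The embryos share stages, runs and depth, so these values are descriptions.

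Levels also differed between sister blastomeres of an embryo. In the 5 E2C embryos the SD of log2 levels within an embryo was 0.30 for *Eif4enif1*, beside 0.27 between embryo means, and 0.38 for *Zar1* beside 0.60. For *Ybx2* it was 0.75 within embryos and 0.20 between embryo means. In the 4 16-cell embryos with 38 cells it was 0.70 within embryos and 0.76 between embryo means for *Pabpc1*, and 1.54 and 0.33 for *Eif4enif1*. A mean over several cells varies less than a single cell. The values within and between therefore do not show whether sister cells differed more than embryos. A cell of these stages holds few UMIs of a storage gene, and the part of counting error in this spread was not tested.

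The gene table and the isoform table held very different parts of these mRNAs. Over all genes the isoform table held 69.4% as many UMIs as the gene table. For *Zar1* it was 5383 of 6332 UMIs (85.0%) and for *Pabpc1* 2027 of 2725 (74.4%), followed by *Zar1l* with 62.9%, *Ybx2* with 47.1% and *Eif4enif1* with 44.0%. *Pabpc1l* kept 31.2%, *Cpeb1* 16.5% and *Eif4e1b* 11.1%. *Lsm14b* kept 7 of 1617 UMIs (0.433%), with 0 of 695 in oocytes and 3 of 811 in zygotes, and *Ddx6* kept 0 of 82. Among 1497 genes with at least 500 UMIs in oocytes and zygotes, 41 genes (2.74%) kept under 1%, and the median was 69.6%. The isoform table leaves out isoforms seen in fewer than 5 cells and those its filters removed, and which of these took the *Lsm14b* reads was not tested.

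Over all genes the isoforms reached an annotated 3' end more often than a 5' end. Within 100 bases of an annotated coding transcript's end lay the 3' end of 67.7% and the 5' end of 34.7% of isoform UMIs over all genes. For *Cpeb1*, *Ybx2* and *Pabpc1l* 100% of UMIs reached such a 3' end, for *Zar1* 99.9%, for *Eif4enif1* 94.6%, for *Pabpc1* 90.2%, for *Zar1l* 80.4% and for *Eif4e1b* 51.8%. The 5' end was reached by 83.1% of *Eif4e1b*, 65.2% of *Zar1l*, 26.7% of *Cpeb1*, 21.0% of *Pabpc1l*, 9.42% of *Pabpc1*, 7.46% of *Eif4enif1* and 0% of *Ybx2* UMIs. *Zar1* counted only 5.70%, because its main isoform begins upstream of the annotated start, at position 72581407 on the minus strand of chr5, where the annotated gene ends at 72581254.

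**Figure D4:**
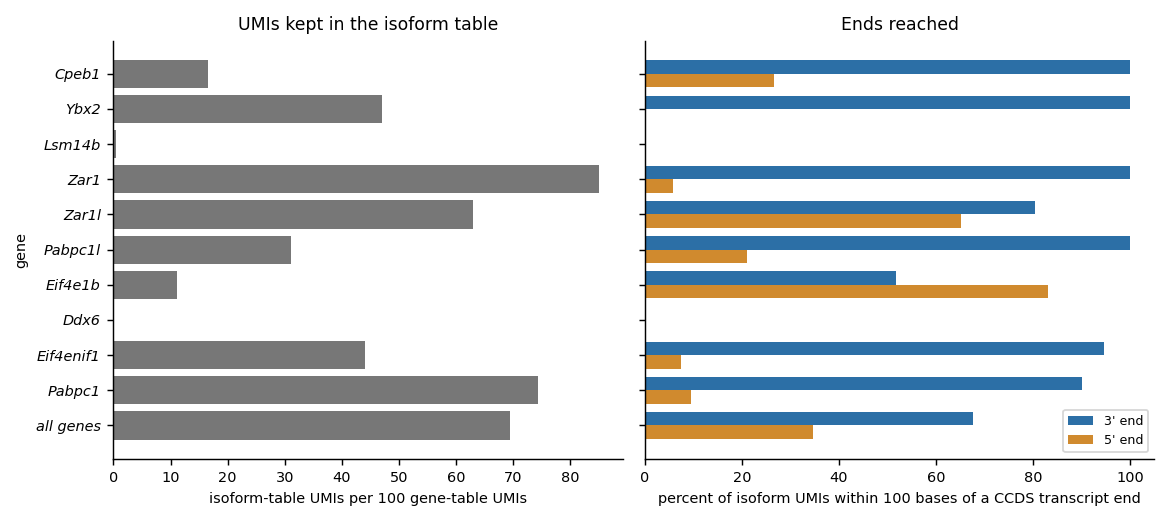
Left (horizontal bars), isoform-table UMIs per 100 gene-table UMIs for each storage protein gene and for all genes. Right, percent of isoform UMIs whose 3' end (blue) or 5' end (orange) lay within 100 bases of an annotated coding transcript end. *Lsm14b* kept 0.433% and *Ddx6* none, and both right-hand bars are absent for these genes and the 5' bar for *Ybx2*.

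*Zar1* was carried by 1 isoform, PB.57286.1, a match to the annotated 4-exon transcript with 1598 bases and 4462 of 5383 UMIs (82.9%). Its share per embryo was 83.8% ± 5.04 in oocytes (SD, n = 10), 81.0% ± 5.97 in zygotes (n = 9) and 74.1% ± 11.4 in E2C embryos (n = 5). A new combination of annotated splice sites, PB.57286.4 with 3 exons and 1417 bases, held 4.51% of UMIs, and the 3' fragment PB.57286.5 of 633 bases held 6.76%. PB.57286.1 changed by -2.48 ± 0.36 from zygote to E2C and by -4.30 ± 0.48 from E2C to L2C on the log2 scale (limma, adjusted p = 1.10e-06 and 8.50e-11). All 6 *Zar1* isoforms tested fell from oocyte to 16-cell, beside 15.4% of all isoforms tested. They passed the filter on low values mainly through oocytes and zygotes, where they were highest, so this count is a description.

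*Eif4enif1* reads were mostly 3' fragments. Of 630 UMIs, 604 (95.9%) fell in 20 isoforms that match part of an annotated transcript, and the full 18-exon transcript PB.9636.9 of 3595 bases held 19 (3.02%). PB.9636.135, the leading isoform in runs 1 to 3 but not in the 4th run, has 3 exons at the 3' end with 1251 bases and held 188 UMIs (29.8%). Its share per embryo, over embryos with at least 5 UMIs of the gene, was 37.0% ± 16.4 in oocytes (SD, n = 10), 30.5% ± 8.89 in zygotes (n = 9), 18.6% ± 9.18 in E2C (n = 5) and 26.7% ± 9.53 in L2C embryos (n = 5). On shares of the embryo mean levels, which gave 19.3% in E2C and 38.7% in L2C, the step was not called (limma, adjusted p = 0.349). Of 11 isoforms tested 4 fell from E2C to L2C and none rose, beside 13.1% lower and 12.9% higher of all isoforms tested.

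*Pabpc1* had 35 isoforms, of which 19 were tested and 13 rose from E2C to L2C, beside 12.9% of all isoforms tested. The *Pabpc1* isoforms passed the filter on low values mainly through embryos from L2C on, so this count is a description. Full matches to an annotated transcript, short ones included, were 9 isoforms with 726 of 2027 UMIs (35.8%), and partial matches were 24 with 1290 (63.6%), many of them 3' pieces that start at successive exons. The 2 leading isoforms were full matches to short transcripts, PB.26210.9 with 3 exons and 248 UMIs (12.2%) and PB.26210.2 with 5 exons and 237 (11.7%). Of the 15-exon matches PB.26210.5 of 2818 bases held 160 UMIs (7.89%), PB.26210.103 held 17 and PB.26210.88 held 9. PB.26210.5 was seen with 4 of 166 UMIs in L2C embryos, 31 of 119 in 4-cell embryos, 38 of 253 in 8-cell embryos, 34 of 653 in 16-cell embryos, 9 of 463 in 32-cell cells and 19 of 50 in mESCs. Its level rose by 1.77 ± 0.49 from L2C to 4-cell (limma, log2, adjusted p = 0.0314), while 4 shorter *Pabpc1* isoforms fell at this step with adjusted p between 0.0510 and 0.153. Its share was 2.42% in L2C and 21.5% in 4-cell embryos as a mean over embryos, a difference that was not called (limma on shares, adjusted p = 0.926). Of all *Pabpc1* UMIs 90.2% ended at position 36595661 of chr15 and 5.82% at 36595963, which is 302 bases short of it.

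*Eif4e1b*, *Zar1l* and *Pabpc1l* had several ends or splice forms on few UMIs. *Eif4e1b* had 83 UMIs in 9 isoforms, with 37.3% ending at position 54788453 of chr13, 30.1% at 54788146, which is 305 bases short of the annotated end, and 14.5% at 54788491. *Zar1l* had 112 UMIs, of which 45.5% were 1 annotated transcript and 54.5% were 3 isoforms with a splice site outside the annotation, and 19.6% ended 4636 bases before the annotated end. For *Pabpc1l*, 75 of 81 UMIs (92.6%) lay in 9 new combinations of annotated splice sites and none in a full match to an annotated transcript. *Ybx2* had 81 UMIs in 6 isoforms, of which PB.11988.30, with 5 exons and 1008 bases, rose by 1.54 ± 0.27 from zygote to E2C and changed by -1.50 ± 0.36 from E2C to L2C (limma, log2, adjusted p = 6.23e-05 and 0.000874).

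Isoform levels are copies per 100,000 isoform UMIs of a cell. Over the 9 genes 42 of 100 isoforms passed the filter on low values. From oocyte to zygote none was called, against 1.48% of 29409 isoforms (1.16% higher and 0.320% lower), with 6 of the 42 at an unadjusted p under 0.05 (limma), and 3 were called with a pseudocount of 0.1. From zygote to E2C 1 rose and 4 fell (5.18% of all called, 2.23% higher and 2.94% lower), and from E2C to L2C 13 rose, all of *Pabpc1*, and 8 fell (26.0% of all, 12.9% higher and 13.1% lower). From L2C to 4-cell 2 rose and 4 fell, beside 2.61% and 1.68% of all (4.29% together). From 4-cell to 8-cell 3 rose, beside 3.63% higher and 4.30% lower of all (7.93%), and from 8-cell to 16-cell 1 rose, beside 1.05% and 0.921% (1.97%). From oocyte to 16-cell 13 rose and 7 fell, beside 15.8% and 15.4% (31.2%). Among storage genes with enough UMIs, limma called none for isoform shares, mean length of molecules or use of the main 3' end between adjacent stages. For length and end use these were *Zar1* and *Eif4enif1* up to E2C, *Eif4enif1* from E2C to L2C and *Pabpc1* later. *Cpeb1*, *Zar1l*, *Ybx2* and *Pabpc1l* were tested for shares only, at steps up to E2C. *Lsm14b*, *Eif4e1b* and *Ddx6* were tested for none of these. At an unadjusted p under 0.05 stood 1 isoform share, from zygote to E2C, no length, and 3 end uses, 2 of them from oocyte to zygote and 1 from zygote to E2C. Among all genes tested over the 6 steps in order, shares were called in 0.0293%, 1.27%, 11.6%, 0.487%, 0% and 0%, length in 0%, 3%, 18.3%, 0.503%, 0.580% and 0.0490%, and 3' end use in 1.66%, 10.6%, 38.6%, 0.921%, 0.983% and 0%. From E2C to L2C *Eif4enif1* was the only storage gene with enough UMIs for any of the 3 measures. Its mean length was 1535 bases in E2C and 1662 in L2C embryos (limma, adjusted p = 0.549). From zygote to E2C *Zar1* gave 1361 and 1254 bases (adjusted p = 0.280). *Eif4enif1* used its main 3' end in 97.0% of UMIs in oocytes and 91.9% in zygotes (limma, adjusted p = 0.225) and in 98.3% in E2C embryos (limma, adjusted p = 0.206).

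The divided oocytes allow levels to be compared between inputs of different size. Isoform counts were given for them and were summed per gene. *Zar1* stood at 74.5, 93.7, 97.1 and 95.1 copies in intact oocytes, at 88.5 to 122 (median 104) in 1/2 oocytes and at 73.7 to 128 (median 97.3) in 1/4 oocytes. The groups overlapped. *Eif4enif1* stood at 23.7 to 59.4 copies (median 31.6) in intact, 29.2 to 69.5 (median 43.8) in 1/2 and 35.9 to 60.5 (median 47.3) in 1/4 oocytes, and *Cpeb1* at medians of 8.60, 11 and 8.66. The log2 differences from intact oocytes were 0.24 and 0.17 for *Zar1*, 0.34 and 0.41 for *Eif4enif1* and 0.46 and 0.11 for *Cpeb1*, none of them called (edgeR, adjusted p from 0.594 to 0.944). The other 7 genes had too few counts to be tested. Of 2767 genes edgeR called 0 (0%) in either comparison, with 185 and 255 genes at an unadjusted p under 0.05, and DESeq2 called 0 and 7 genes, none of them a storage gene. The labels do not say which pieces came from the same oocyte, and the test took every piece as independent. The main *Zar1* isoform PB.57286.1 held a share of 87.4% ± 3.61 in intact, 84.0% ± 5.26 in 1/2 and 83.3% ± 1.67 in 1/4 oocytes (SD, n = 4, 6 and 6). For *Eif4enif1* the isoforms with the most UMIs were PB.9636.69, PB.9636.79 and PB.9636.104, of 3075, 2792 and 2287 bases. PB.9636.69 held 8.83% ± 2.04 in intact oocytes (SD, n = 4). PB.9636.135, which led in runs 1 to 3, was not among them, and the reason was not tested.

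**Figure D5:**
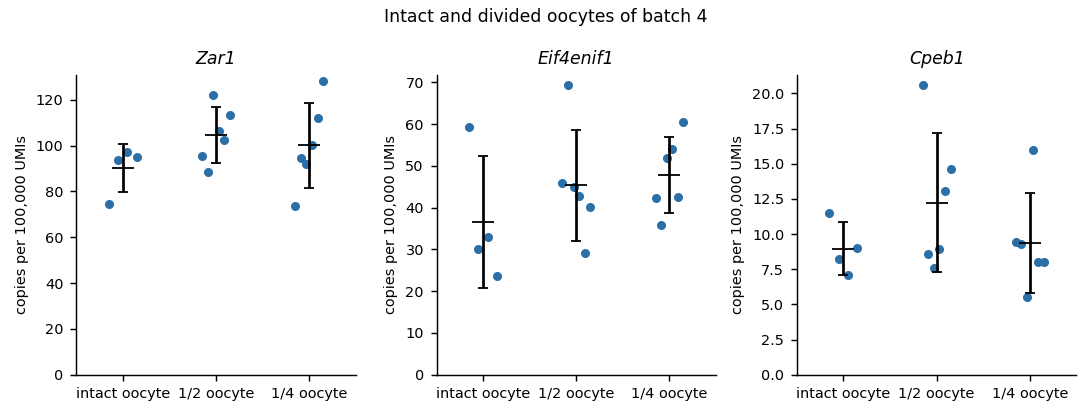
Copies per 100,000 isoform UMIs (vertical axes, linear, from 0) of *Zar1*, *Eif4enif1* and *Cpeb1* in intact, 1/2 and 1/4 oocytes of the 4th run (horizontal axis). Points are samples and bars mean and SD over 4, 6 and 6 samples. The 3 groups overlap for each gene.

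Other genes of the same machinery were read from lists. Of 25 further mRNA particle and P-body genes, 3 rose and 7 fell from E2C to L2C, with a median log2 change of -0.77, beside 25.6% higher and 22.8% lower (48.4% together) and a median of 0.03 over all genes. *Dazl*, a germ-cell RNA-binding protein gene, held 69.7 ± 16.8 copies in E2C (SD, n = 5) and 1.90 ± 1.78 in L2C embryos (n = 6), a change of -4.62 ± 0.42 (limma, log2, adjusted p = 1.78e-14). *Dcp1a*, a decapping activator gene, changed by -2.72 ± 0.35 (adjusted p = 1.28e-09). *Ybx1*, the somatic relative of *Ybx2*, held 6.57 ± 1.96 copies in E2C and 43.1 ± 6.99 in L2C embryos and rose by 2.54 ± 0.34 (adjusted p = 3.84e-09), where *Ybx2* fell.

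Of 24 genes of poly(A) tail making and binding, 22 were tested, and 7 rose and 6 fell from E2C to L2C with a median of 0.27, beside the same 25.6% and 22.8% of all genes. *Papola*, the canonical poly(A) polymerase gene, rose by 3.23 ± 0.34 from 6.54 ± 2.65 to 68.6 ± 15.9 copies, and *Cstf1*, a cleavage factor gene, by 2.71 ± 0.39. *Paip1*, which encodes a partner of poly(A)-binding protein, changed by -3.34 ± 0.36. Of 15 cap-binding and initiation genes 6 rose and 3 fell, with a median of 0.27, again beside 25.6% and 22.8% of all genes. *Eif4e2* rose by 3.39 ± 0.37 from 2.49 ± 1.17 to 33.8 ± 9.86 copies and *Eif4h* by 2.95 ± 0.38, while *Eif4e3* changed by -3.43 ± 0.39 (limma, log2, adjusted p = 1.25e-11, 1.90e-09 and 3.68e-11).

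Among all 11682 genes tested, the one whose log2 level followed each storage gene most closely over the 43 embryos was found by Pearson's r. For *Pabpc1* it was *Rpl39*, a ribosomal protein gene (r = 0.96), which stood at 6.79 ± 2.99 copies in E2C and 82.8 ± 19.5 in L2C embryos. For *Zar1* it was *Gm5065* (0.96), for *Lsm14b* *Tm9sf2* (0.95), for *Pabpc1l* *Gm40617* (0.94), for *Cpeb1* *Gm13084* (0.93), for *Eif4e1b* *Kif17* (0.93) and for *Eif4enif1* *Cdr2* (0.92). *Zar1l*, *Ybx2* and *Ddx6* had less close neighbours, *Arid5b* (0.81), *Fmnl3* (0.80) and *Arsk* (0.76). These genes were the closest of many and carry no test.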

How the data were processed

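Single cells were barcoded and sequenced as full-length cDNA on a PacBio instrument, in runs 1 to 3 for the stages and a 4th run for divided oocytes. The authors aligned consensus reads to mm10 with minimap2, collapsed and classified isoforms (cDNA_Cupcake, SQANTI3), and dropped those found in under 5 cells. SQANTI3 classes are a full match, a partial match, a new combination of annotated splice sites, or a new splice site. The deposited gene and isoform tables hold UMIs of a cell scaled by the authors to 100,000 per cell (CPM divided by 10, recorded as a score for columns of the smaller stages), and the deposited table of the 4th run holds raw UMI counts per isoform. Every value of the scaled tables was a whole multiple of 1 UMI (100% within 0.1 of a whole number), so UMIs were recovered.

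The deposited labels name 4 runs only, and stage and embryo come from the column names, with all columns used. Nothing further says whether embryos shared a mother, so p-values measure the spread between embryos. An embryo's level is the mean of its cells, fitted as log2(copies + 1), which understates changes of low genes. Genes at 1 copy or more in at least 4 embryos were fitted together with limma 3.58.1 (trend and array weights, R 4.3.3), and called at a log2 change over 1 and an unadjusted p under 0.01. Adjusted p-values are Benjamini-Hochberg over all genes tested. Isoform shares (arcsine square root), lengths and 3' end use were tested with limma at adjusted p-values of 0.05, shares also at 0.01 per gene. Counts of the 4th run, summed per gene, were tested with edgeR 4.0.16 (quasi-likelihood), with DESeq2 1.42.0 as an alternative. The fits were tested on simulated data. Other pseudocounts, filters, scalings, weights, tools, a run term and leaving out embryos were tried. The members and lists were chosen with earlier results of these data known. Genes named beyond the 10 are the closest in pattern to each and, per list, up to 3 called genes with the largest change from E2C to L2C. One 3' end window is not reported here. Tables were made with Python 3.11.15.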

Additional observations from a re-analysis of the deposited data

Results flagged for a closer look

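Of 92 groups of 4 to 10 samples examined over the 10 genes, 11 held a sample far from the others by Dixon's criterion. Its limits give about 1 in 20 for normally distributed values. That rate does not hold for low counts, since a group with 1 value above 0 and all others at 0 is always flagged. In the stage series, *Zar1* stood at 303.9 copies in zygote 9, beside 82.5 to 169.7 in the other zygotes, and *Pabpc1l* at 3.333 copies in oocyte 6, beside 0 to 1.17 in the other oocytes. Oocyte 6 was the only oocyte of run 2. *Zar1* stood at 5.565 copies in L2C embryo 1, which is 1 UMI in its only cell, beside 0 to 0.986 in the others. *Cpeb1* stood at 0.9232 copies in 4-cell embryo 1 and *Pabpc1l* at 0.6281 in 16-cell embryo 4, each a single UMI where the other embryos of the stage were at 0.

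In the 4th run, *Zar1* stood at 74.47 copies in intact oocyte 1, beside 93.7 to 97.1 in the others. *Pabpc1* stood at 1.773 copies in the same oocyte and at 6.794 in 1/4 oocyte 1, with all others of those groups at 0. *Cpeb1* stood at 15.98 copies in 1/4 oocyte 4, beside 5.50 to 9.41. *Zar1l* and *Pabpc1l* each stood at 0.3558 copies in intact oocyte 3, which is 1 UMI, with the others at 0.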

How the results depend on the processing

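Of 1081 changes of single storage genes recomputed under alternatives, 1017 kept their side of the limits, 44 were no longer called and 20 became called. Direction was compared only where a fit called the change, and 0 of those reversed. Uncalled changes could switch sign within the 1017, as *Ybx2* did from 4-cell to 8-cell (0.195, lowest -0.859). Of 456 counts 387 stayed within 1.5 times. With a pseudocount of 0.1 the step from oocyte to zygote called 1325 genes in place of 379, 5 storage genes in place of 3 and 3 of their isoforms in place of 0, and the steps from 4-cell to 8-cell and from 8-cell to 16-cell called 5 and 2 storage isoforms. With a pseudocount of 5 the 6 steps called 53, 168, 2657, 138, 544 and 47 genes and the comparison of oocyte with 16-cell 2762, with 0 storage genes from oocyte to zygote and at the 3 steps after L2C and 4 from oocyte to 16-cell, and with 2, 1, 0, 0 and 0 storage isoforms from zygote to E2C onward and 7 from oocyte to 16-cell. The run as a block, fitted to oocytes and zygotes, left 187 genes from oocyte to zygote, and a fit of these 2 stages without the block, chosen after seeing the data, called 3 storage genes. Summed isoforms called 3 storage genes from zygote to E2C, 485 genes from L2C to 4-cell, 0 storage genes at each of the 2 later steps and 4 from oocyte to 16-cell. Without array weights 1183 genes and 3 storage genes were called from L2C to 4-cell and 0 storage genes from 8-cell to 16-cell. DESeq2 called 473 genes from L2C to 4-cell, 2 storage genes from 4-cell to 8-cell, 203 genes from 8-cell to 16-cell and 7 genes in 1/4 oocytes, and edgeR on UMIs 2 storage genes from 4-cell to 8-cell and 261 genes from 8-cell to 16-cell. A filter at 5 copies called 2 storage genes from 4-cell to 8-cell and 260 genes from 8-cell to 16-cell, and 6, 2, 1 and 0 storage isoforms from E2C onward and 10 from oocyte to 16-cell. Medians over cells called 3, 2 and 0 storage genes at the 3 steps after L2C, 12 storage isoforms from E2C to L2C, 2 from 8-cell to 16-cell and 10 from oocyte to 16-cell. Quantile normalization called 0 storage genes at the steps from 4-cell to 8-cell and from 8-cell to 16-cell. The cause was not tested for these shifts. Among steps between adjacent stages, a pseudocount of 0.1 ended the calls of *Pabpc1l* and *Eif4e1b* from zygote to E2C and of *Ybx2* from E2C to L2C, and a pseudocount of 5 those of *Ybx2*, *Pabpc1l* and *Eif4e1b* from oocyte to zygote, of *Pabpc1l* and *Eif4enif1* from zygote to E2C, of *Ybx2* and *Lsm14b* from E2C to L2C and of *Eif4enif1* at the later steps. Summed isoforms ended those of *Ybx2* and *Eif4e1b* from oocyte to zygote, of *Pabpc1l* and *Eif4enif1* from zygote to E2C, of *Cpeb1* from E2C to L2C (-0.83) and of *Eif4enif1* at the last 2 steps. *Lsm14b* from E2C to L2C was also lost with no filter and with medians over cells.

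Leaving out 1 embryo, the step from L2C to 4-cell called 430 genes (without 4-cell embryo 4) to 902 (without 4-cell embryo 1), with 1 to 2 storage genes (*Zar1* joined without 4-cell embryo 3) and 1 (without 4-cell embryo 5) to 5 storage isoforms. The step from 4-cell to 8-cell called 1 to 2 storage genes (*Zar1* joined without 4-cell embryo 2 or 3). The step from 8-cell to 16-cell called 0 (without 8-cell embryo 4 or 16-cell embryo 3) to 1 storage genes and 0 (without 8-cell embryo 4) to 3 (without 16-cell embryo 3) storage isoforms. *Zar1l* from oocyte to 16-cell was lost without 16-cell embryo 1 or 2. No paired analysis was possible because each oocyte or embryo was read at 1 stage only and its number in the column names only names it, and the run block above groups oocytes and zygotes by run. Depth limits cells after E2C most, where 1 UMI of a cell is worth several copies.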
